A study of Mus musculus with 6 samples.

Results

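Glycolysis and the response to low oxygen were followed through 32 genes in tendon cells kept in plain medium or in medium conditioned by sensory ganglia. The genes were chosen by symbol, from what their products do, with earlier results of these data known. Of the 24413 genes in the deposited table, 21 formed the glycolytic class: 16 genes of glycolytic enzymes, counting lactate dehydrogenase, and 5 of transport and regulation. The other 11 formed the hypoxia class, made up of Hif1a and 10 genes outside glycolysis that the HIF factors are known to induce or that act on HIF. All 32 had an entry, and 28 of them had a mean of at least 1 FPKM (fragments scaled to gene length and to the total of the library) over the 6 libraries and were tested. The untested members were Slc16a3, Egln3, Ankrd37 and Car9.

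The cells came from Achilles tendons of 3 male mice aged 12 weeks, with the genotype Tppp3ECE/+;R26RtdT-CreERT2;Scx-GFP, and were sorted on GFP and tdT fluorescence. Tppp3 marks cells of the tendon sheath. Control cells (3 libraries) spent 24 h in medium with 1% FBS, and conditioned cells (3 libraries) spent 24 h in DRG CM, the culture medium of dorsal root ganglia. These ganglia came from 3 male C57BL/6J mice aged 12 weeks and grew for 4 to 5 days beside the drugs 5-fluoro-2-deoxyuridine and uridine, at 20 µM each, before αMEM with 1% FBS was put on them and collected. The control medium is not described as having been on cells or frozen. The labels tie no library to an animal, so a p-value here speaks only to differences among 6 libraries, which can include technical ones.

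Glycolysis splits glucose into pyruvate in the cytosol and yields ATP and NADH, and lactate dehydrogenase turns pyruvate into lactate so that NADH can be used again. HIF-1, a dimer of the oxygen-labile HIF-1 alpha (Hif1a) and ARNT, binds short hypoxia response elements and is known to induce most glycolytic genes together with Vegfa, Bnip3, Car9, Egln3 and others. HIF-1 alpha is controlled mainly through its protein, which prolyl hydroxylases mark for destruction when oxygen is present, so that its mRNA level and its activity can differ. Tendon is known as a tissue poorly supplied with blood vessels.

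The libraries held 18814702 to 26233217 fragments by the total the authors divided by. Of 11678 genes tested, 472 were higher and 291 lower in conditioned medium (limma, adjusted p below 0.05). Tendon markers were present: Col1a1 was at 2618 FPKM or more in every library, and Scx at 11.1 to 13.8 FPKM. Tppp3 itself was at 0.724 to 1.12 FPKM and was not tested. The summed level of the 7 tendon markers was 3478 to 3556 FPKM in control medium and 2751 to 2828 FPKM in conditioned medium. Most of this sum was Col1a1, at 3299 to 3371 FPKM in control medium and 2618 to 2691 FPKM in conditioned medium. Of the 6 tested markers 4 were lower, Tnmd, Fmod, Thbs4 and Col1a1. Scx did not pass (limma adjusted p = 0.0725), nor did Mkx, with a log2 fold change of 0.005. Of 8 sensory neuron markers, 3 had no entry (Snap25, Tac1 and Rbfox3), the other 5 were below 1 FPKM, and their sum was 0.356 to 0.603 FPKM in control medium and 0.240 to 0.438 FPKM in conditioned medium. The summed pericyte markers were at 0.911 to 1.14 FPKM in controls and 0.546 to 0.617 FPKM with conditioned medium, and the summed glial markers at 2.97 to 3.53 and 1.61 to 2.88 FPKM, both without overlap. Macrophage and endothelial sums overlapped and did not exceed 5.01 FPKM in any library, erythroid ones (1 of 4 with an entry) did not exceed 0.144 FPKM, and the skeletal muscle sum (2 of 5 with an entry) was 39.1 to 42.7 FPKM in control libraries against 40.0 to 43.4 FPKM with conditioned medium. In such bulk samples, fewer cells of a type and less RNA per cell cannot be told apart, and the part of the lower tendon, pericyte and glial markers in the results that follow was not tested.

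In conditioned medium 3 of the 28 tested members rose, Pkm, Aldoa and Vegfa, and none fell, while 25 did not pass. These 3 are 10.7% of the members tested, and 6.53% of all genes tested passed in either direction (4.04% higher and 2.49% lower). The differences were small: the median log2 fold change of the members was 0.10 against 0.01 for all tested genes, and Pkm, the steepest riser, gained 28.2%. Of the 28 members, 24 had a log2 fold change above 0, as had 52.0% of all genes tested. In 12 members, 42.9% of those tested, the 3 conditioned libraries all lay above the 3 controls, which was so for 14.3% of all genes tested. No tested member had all conditioned libraries below all controls (11.6% of all genes tested, 26.0% for either direction). The number of members called depended on the filter and on single libraries: it was 1 with no filter on low values and 6 of 19 where a mean of 5 FPKM was asked for, where 10.4% of all genes passed. It was 1 (Pkm) without control 2, without conditioned 1 or without conditioned 2, 2 without conditioned 3, and 4 without control 1 or without control 3. The share of all genes that passed also fell below 6.53% in these fits. It was 2.02% with no filter, and 3.37% (without conditioned 2) to 5.81% (without control 1) with 1 library left out.

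**Figure D1:**
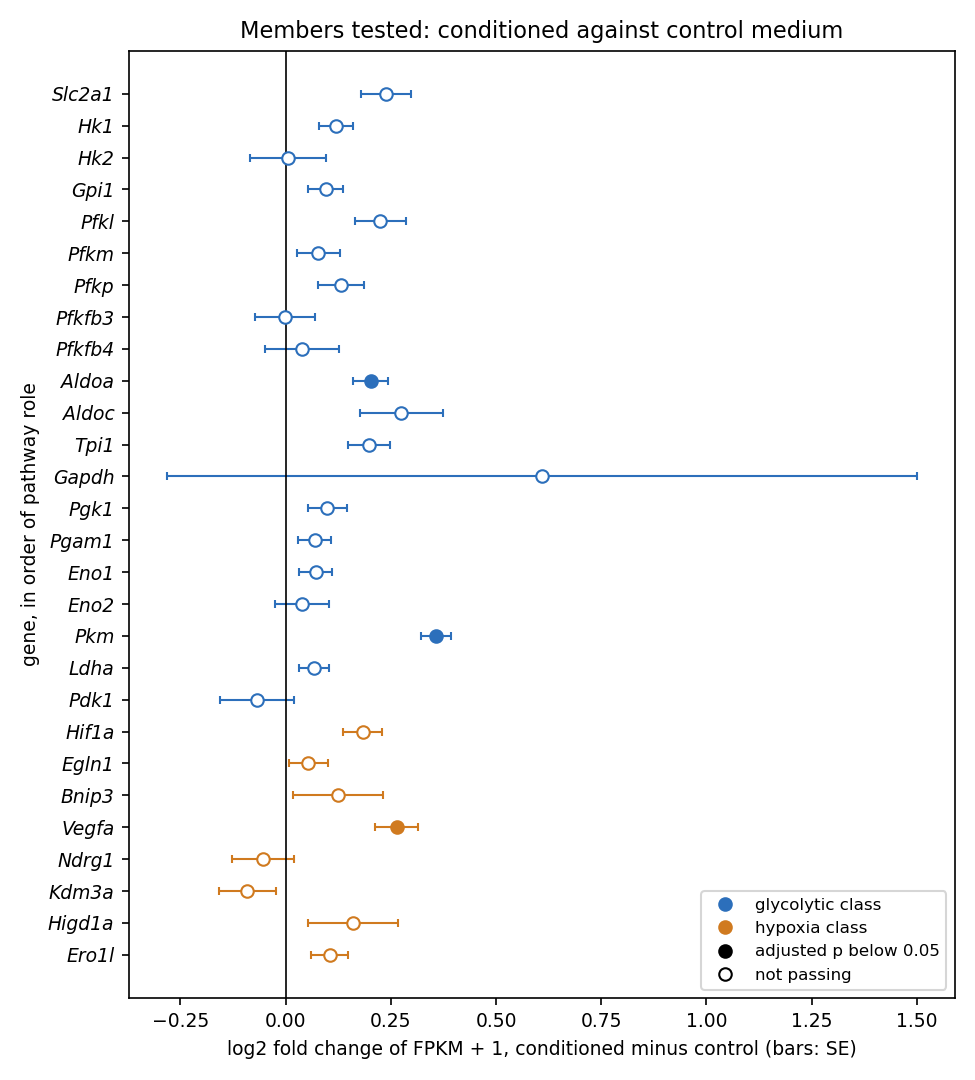
Log2 fold change of FPKM + 1 (conditioned minus control, x axis) with its standard error for each of the 28 tested members, in order of role, with the glycolytic class in blue and the hypoxia class in orange. Filled points passed the adjusted threshold: Aldoa, Pkm and Vegfa; most of the others lie between 0 and 0.28, and Gapdh has by far the widest error.

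The recognition core of HIF is short. Windows searched for it are printed for the risen Pkm and Vegfa and for Ldha, the member with most matches. Those of the risen Aldoa, and the Vegfa window that holds 2 matches, are not printed. Promoter windows of RefSeq on GRCm38.p6, from 250 bases before to 50 after a start, were searched for ACGTG and GCGTG on both strands, where the palindrome CACGTG counts on each strand. Such a core was in 43.8% of the 32851 windows of all genes, where a gene can have several windows. The numbers of members given below count genes instead of windows, so 43.8% is not a like-for-like background for them. A window was matched for 31 of the 32 members (Ero1l by its synonym), and Ndrg1 had none. Below, letters run 5′ to 3′ on the gene's strand, and capitals mark the matches.
Pkm, chr9:59656326-59656625, plus strand, nearest to the annotated start of the gene: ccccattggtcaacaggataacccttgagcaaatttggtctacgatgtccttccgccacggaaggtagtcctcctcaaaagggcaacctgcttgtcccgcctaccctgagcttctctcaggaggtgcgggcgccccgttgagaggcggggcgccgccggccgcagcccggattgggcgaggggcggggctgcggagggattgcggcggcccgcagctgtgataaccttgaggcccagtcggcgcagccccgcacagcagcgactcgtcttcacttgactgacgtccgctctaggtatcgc
Pkm, chr9:59656977-59657276, plus strand, at the other start: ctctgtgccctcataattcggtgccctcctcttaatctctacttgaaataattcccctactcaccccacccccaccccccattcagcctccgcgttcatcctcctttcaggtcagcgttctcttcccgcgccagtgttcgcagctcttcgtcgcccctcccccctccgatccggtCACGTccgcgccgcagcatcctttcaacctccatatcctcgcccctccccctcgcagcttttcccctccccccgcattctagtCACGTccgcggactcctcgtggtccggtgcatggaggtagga
Vegfa, chr17:46032328-46032627, minus strand, nearest to the annotated start of the gene: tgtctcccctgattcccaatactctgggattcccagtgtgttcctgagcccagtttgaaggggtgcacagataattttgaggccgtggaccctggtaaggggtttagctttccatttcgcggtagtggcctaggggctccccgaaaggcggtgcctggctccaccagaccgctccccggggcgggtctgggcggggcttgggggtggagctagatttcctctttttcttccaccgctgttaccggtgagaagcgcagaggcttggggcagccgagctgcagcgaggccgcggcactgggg
Ldha, chr7:46845554-46845853, plus strand: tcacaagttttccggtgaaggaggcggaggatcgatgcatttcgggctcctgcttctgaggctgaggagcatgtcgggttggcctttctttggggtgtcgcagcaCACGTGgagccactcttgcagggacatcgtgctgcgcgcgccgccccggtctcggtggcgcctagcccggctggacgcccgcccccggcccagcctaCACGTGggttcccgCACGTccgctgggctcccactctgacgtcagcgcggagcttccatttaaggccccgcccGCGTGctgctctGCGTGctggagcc
The upper Pkm window and the Vegfa window hold no match, the other Pkm window 2 and the Ldha window 7, 5 of ACGTG and 2 of GCGTG. In the windows nearest to the annotated starts, 24 of 31 members had a match (77.4%), and the 7 without one were Hk1, Gpi1, Aldoa, Tpi1, Eno2, Pkm and Vegfa. That split put all 3 risen members among the 7 without a match (median log2 fold change 0.20, against 0.09 for the 20 tested members with a match). Of all genes tested 4.04% rose. Their share among genes with and without a match was not computed, and the split was not tested. The split depended on the start used: where any window of a gene could hold the match, 28 members had one, among them all 3 risen genes, and only Gpi1, Tpi1 and Eno2 had none (median 0.095, against 0.112 for the 24 tested with one). The start of the only Vegfa window with a match lay 7206 bases into the gene from its annotated start. For an Aldoa window with 1 match, the most of any Aldoa window, this distance was 1497 bases. The windows do not reach distant elements, such as the one known upstream of Vegfa, and a match is no evidence of binding. Ldha, with 7 matches, did not pass the test.

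Glucose enters through the transporter GLUT1, the product of Slc2a1. Slc2a1 was at 13.6, 12.0 and 11.6 FPKM in control libraries 1, 2 and 3 and at 14.55, 14.92 and 14.92 FPKM in conditioned libraries 1, 2 and 3. All conditioned libraries were above all controls, control 1 being the nearest, and the log2 fold change of 0.24 ± 0.059 (SE) missed the threshold (limma, adjusted p = 0.0546). It passed without control 1 (log2 fold change 0.30, adjusted p = 0.00853) and where a mean of 5 FPKM was asked for (adjusted p = 0.0358). Slc2a1 gave most of the transcript of the 3 glucose transporters Slc2a1, Slc2a3 and Slc2a4: 91.9% ± 1.27 (SD, n = 3) in control and 95.1% ± 0.541 (SD, n = 3) in conditioned libraries. The groups did not overlap, Slc2a3 being at 0.963 ± 0.0895 FPKM in control and 0.696 ± 0.0761 FPKM in conditioned libraries (SD, n = 3). An exact two-sided permutation test of 3 libraries against 3 cannot give p below 0.10, and gave 0.10 (adjusted p = 0.333 over the 10 isozyme shares computed).

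The hexokinases trap glucose as glucose 6-phosphate. Hk1, the broadly expressed form, was at 17.2 to 18.1 FPKM in control and at 18.7 to 19.5 FPKM in conditioned libraries, which did not overlap (log2 fold change 0.12, limma adjusted p = 0.135). Hk2, the inducible form and a common HIF target, was at 4.63 to 6.055 FPKM and 5.32 to 5.78 FPKM, so that the conditioned libraries lay inside the control range (log2 fold change 0.005, limma adjusted p = 0.986). Gpi1, which makes fructose 6-phosphate, was at 33.6 to 36.7 FPKM in control medium and 37.3 to 38.5 FPKM in conditioned medium, again without overlap and without passing (0.095, limma adjusted p = 0.265).

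Phosphofructokinase commits the sugar to glycolysis, and its liver (Pfkl), muscle (Pfkm) and platelet (Pfkp) subunits are separate genes. Pfkl was at 6.86, 6.93 and 7.73 FPKM in controls 1 to 3 and at 8.97, 8.60 and 8.09 FPKM in conditioned libraries 1 to 3, a difference of 19.2% that did not pass (log2 fold change 0.23 ± 0.061 SE, limma adjusted p = 0.0737). Without control 3, its highest control, it passed (0.27, limma adjusted p = 0.0452). Pfkm (15.6 ± 0.251 against 16.5 ± 1.04 FPKM, SD, n = 3) overlapped between groups, and Pfkp (3.23 to 3.54 against 3.74 to 3.89 FPKM) did not. Pfkm gave more than any other subunit, 59.6% of the summed FPKM in control and 57.2% in conditioned libraries, and Pfkl 27.4% and 29.6%. Only the Pfkl share did not overlap between groups, at the smallest p the exact permutation test allows (0.10, adjusted p = 0.333). Pfkfb3 and Pfkfb4 make fructose 2,6-bisphosphate, the strongest activator of phosphofructokinase, and are classical hypoxia genes. Neither moved past its spread: Pfkfb3 was at 2.62 to 2.93 FPKM in control medium and 2.64 to 3.07 FPKM in conditioned medium (log2 fold change -0.001), and Pfkfb4 at 2.71 to 3.41 and 2.82 to 3.51 FPKM (0.04).

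Aldolase cleaves fructose 1,6-bisphosphate, and Aldoa, its main form outside liver and brain, rose. It was at 152.4, 150.1 and 162.2 FPKM in controls 1 to 3 and at 183, 179.9 and 171.9 FPKM in conditioned libraries 1 to 3. The groups did not overlap, and the difference was 15.1% (log2 fold change 0.20 ± 0.042 SE, limma adjusted p = 0.0265). The call was lost with no filter on low values (adjusted p = 0.0763) and without the trend and robust prior (0.0792), and in a limma fit without control 1 (adjusted p = 0.0597), without control 2 (0.104), without conditioned 1 (0.116) or without conditioned 2 (0.122), with log2 fold changes of 0.18 to 0.20. A second entry named Aldoa, just upstream of the gene and on its strand, was at 0.0621 to 0.345 FPKM and was not tested. Aldoc, the aldolase of brain, was low, at 0.866 to 1.14 FPKM in control medium and 1.24 to 1.70 FPKM in conditioned medium, where 76 to 130 fragments were counted. Its log2 fold change of 0.28 ± 0.099 (SE) did not pass (limma adjusted p = 0.168). Tpi1, which interconverts the resulting trioses, was at 61.3, 67.1 and 68.25 FPKM in controls 1 to 3 and at 78.6, 74.6 and 72.7 FPKM in conditioned libraries 1 to 3. It did not overlap between groups and did not pass (0.20 ± 0.050 SE, limma adjusted p = 0.0610), and it did pass where a mean of 5 FPKM was asked for (limma adjusted p = 0.0394).

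Gapdh, which oxidises glyceraldehyde 3-phosphate and often serves as a reference gene, varied widely between libraries of both media. It was at 17.9, 3.38 and 3.33 FPKM in controls 1 to 3 and at 3.35, 17.9 and 14.5 FPKM in conditioned libraries 1 to 3. Control 1 and conditioned 2 and 3 were thus high and the other three low, and its log2 fold change of 0.61 ± 0.89 (SE) did not pass (limma adjusted p = 0.783). Leaving out a library moved that value between 0.21 (without conditioned 2) and 1.31 (without control 1), and it passed in none of these fits. The highest library was 5.36 times the lowest, a ratio reached by 20 of the 7088 genes whose mean reached 5 FPKM, where the median ratio was 1.17. Among the other tested members the largest such ratio was 1.96, that of Aldoc. Gapdh was also low beside the enzymes around it: it stood at 3.26% to 20.0% of the level of Pgk1, the gene of the next step. Many genes resemble Gapdh: 74 other annotated genes carry a transcript at least 95% identical to it over 50% or more of its coding sequence, 69 of them pseudogenes, and other members had 0 to 4 such genes. Fragments of Gapdh numbered 1717, 366 and 278 in controls 1 to 3 and 301, 1388 and 1408 in conditioned libraries 1 to 3. The 62 of those copies with an entry held 643, 710 and 682 fragments in controls and 614, 466 and 913 in conditioned libraries. How the authors' counting treated reads that fit several genes is not given in the sources used here, so the level of Gapdh is uncertain.

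**Figure D2:**
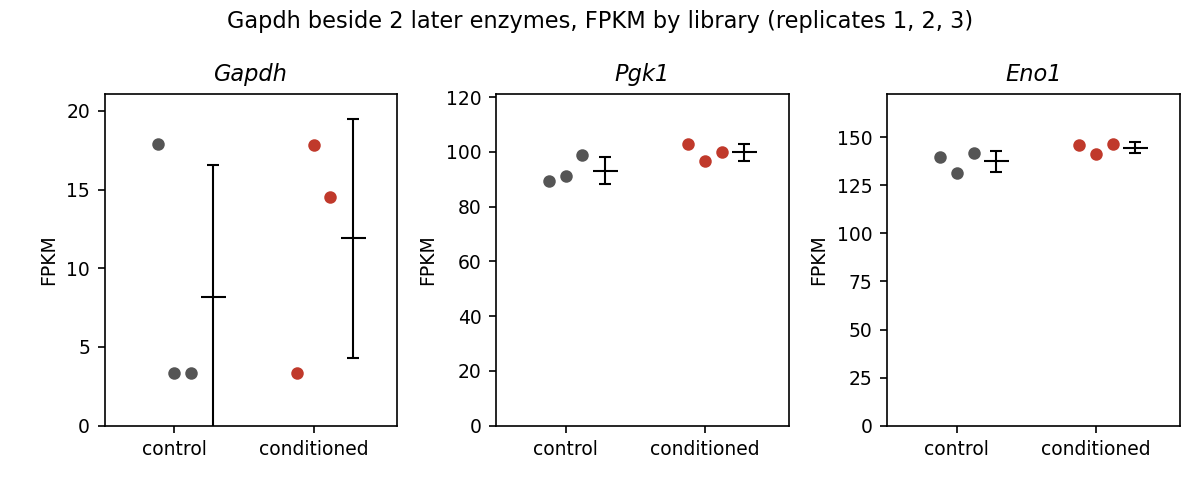
FPKM (y axis) of Gapdh, Pgk1 and Eno1 in each library, control in grey and conditioned in red with replicates 1, 2 and 3 from left to right, and the mean ± SD (n = 3; the lower bar of Gapdh in control ends at the axis). Gapdh lies near 3.3 FPKM in 3 libraries and at 14.5 to 17.9 FPKM in the other three, split over both media, while Pgk1 and Eno1 lie close together in all 6 libraries.

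Pgk1, Pgam1 and Eno1, of the steps between Gapdh and Pkm, did not pass the test. Pgk1, which makes the first ATP of the pathway, was at 89.4, 91.2 and 98.9 FPKM in controls 1 to 3 and at 102.8, 96.5 and 100.0 FPKM in conditioned libraries 1 to 3. Pgam1, the phosphoglycerate mutase, was at 114.1 to 117.6 FPKM in control medium and 115.6 to 124.7 FPKM in conditioned medium. Eno1, the broadly expressed enolase, was at 131.4 to 141.6 and 141.2 to 146.4 FPKM. All 3 overlapped between groups, with log2 fold changes of 0.10, 0.07 and 0.07 that did not pass (limma adjusted p = 0.292, 0.392 and 0.367). Eno2, the enolase typical of neurons, was at 3.10 to 3.36 FPKM in control medium and 3.15 to 3.65 FPKM in conditioned medium (0.04, limma adjusted p = 0.806). Pgk1, Pgam1 and Eno1 have 1 to 3 near-identical copies in the annotation.

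Pkm, the pyruvate kinase gene of most tissues and the last ATP-yielding step, rose more than any other member that passed. Its level was 201.1, 205.7 and 214.7 FPKM in controls 1 to 3 and 269.9, 260.1 and 267.2 FPKM in conditioned libraries 1 to 3. The lowest conditioned library thus stood well above the highest control, and the means differed by 28.2% (log2 fold change 0.36 ± 0.036 SE, limma adjusted p = 0.000782). In contrast to Aldoa and Vegfa, Pkm passed under each of the 15 alternatives computed, with log2 fold changes of 0.30 to 0.38. Pkm makes the M1 and M2 enzymes by a choice of exon, which gene-level values cannot separate. Another annotated gene on the same strand shares 767 bases, 15.3% of the exon bases of Pkm. The summed FPKM of the 15 glycolytic enzyme genes other than Gapdh was 953.9, 944.7 and 997.5 in controls 1 to 3 and 1111, 1071 and 1083 in conditioned libraries 1 to 3. Pkm gave 21.1% to 21.8% of that sum in control and 24.3% to 24.7% in conditioned libraries, where the groups did not overlap.

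Ldha, which makes lactate and is among the best known HIF targets, barely differed. It was at 102.5, 98.7 and 104.8 FPKM in controls 1 to 3 and at 108.1, 108.2 and 104.3 FPKM in conditioned libraries 1 to 3. The groups overlapped, since conditioned 3 lay below control 3, and the log2 fold change of 0.07 ± 0.036 (SE) did not pass (limma adjusted p = 0.363). Its partner subunit Ldhb, which favours lactate oxidation, fell from 17.8 ± 1.04 to 15.1 ± 0.365 FPKM (SD, n = 3; log2 fold change -0.22, limma adjusted p = 0.0392). Its part of the summed Ldha and Ldhb was 15.6%, 14.8% and 14.2% in controls 1 to 3 and 12.0%, 12.4% and 12.8% in conditioned libraries 1 to 3. These shares did not overlap, at the smallest p the exact permutation test allows (0.10, adjusted p = 0.333). The call of Ldhb was lost in each of the 6 limma fits that left out a library: adjusted p was 0.0670, 0.0725 and 0.0623 without controls 1, 2 and 3, and 0.145, 0.117 and 0.0884 without conditioned libraries 1, 2 and 3.

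Pdk1 keeps pyruvate out of the mitochondria by silencing pyruvate dehydrogenase, and it is induced by HIF. It was at 1.23, 1.20 and 1.04 FPKM in controls 1 to 3 and at 1.01, 0.936 and 1.23 FPKM in conditioned libraries 1 to 3. The groups overlapped, and its log2 fold change of -0.07 was the second lowest among the members tested (limma adjusted p = 0.737). It gave 2.20% of the summed FPKM of the 4 pyruvate dehydrogenase kinases in control and 1.91% in conditioned libraries. Slc16a3, the lactate exporter MCT4, was at 0.631 to 0.755 FPKM in control medium and 0.521 to 0.769 FPKM in conditioned medium, and was not tested. Its part of the summed Slc16a1 and Slc16a3 was 14.1% in both groups.

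**Figure D3:**
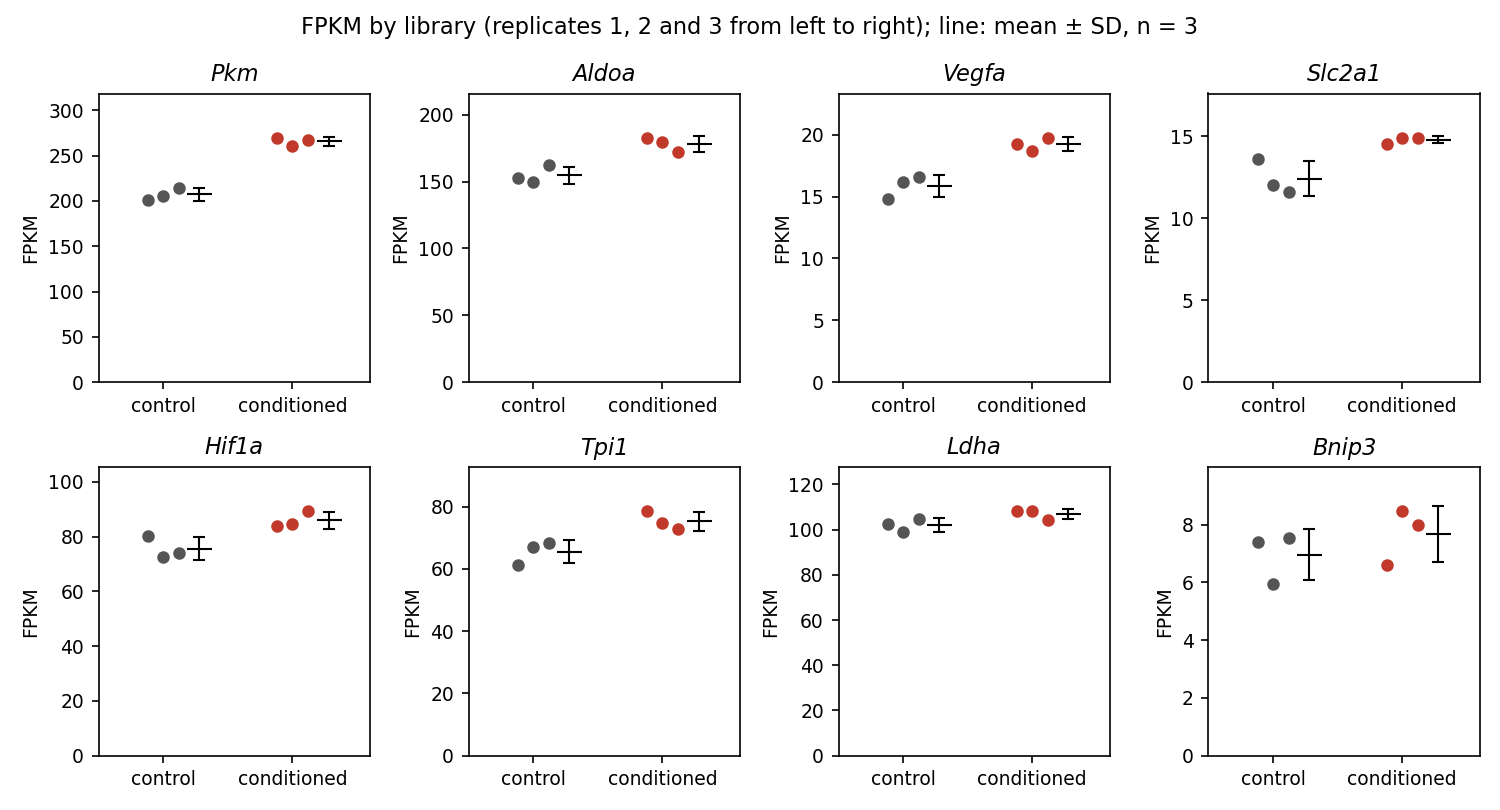
FPKM (y axis, from 0) of 8 members in each library, control in grey and conditioned in red with replicates 1, 2 and 3 from left to right, and the mean ± SD (n = 3). The conditioned libraries of Pkm, Aldoa, Vegfa, Slc2a1, Hif1a and Tpi1 all lie above the controls, whereas those of Ldha and Bnip3 overlap with the controls.

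Among the regulators of the hypoxia class, Hif1a was at 80.3, 72.7 and 74.0 FPKM in controls 1 to 3 and at 83.8, 84.7 and 89.3 FPKM in conditioned libraries 1 to 3. All conditioned libraries lay above all controls, control 1 being the nearest. The log2 fold change of 0.18 ± 0.047 (SE) did not pass (limma adjusted p = 0.0635). It passed without control 1 (0.23, limma adjusted p = 0.0184) and where a mean of 5 FPKM was asked for (limma adjusted p = 0.0423). Egln1, the main prolyl hydroxylase that marks HIF-1 alpha, overlapped at 11.7 to 12.1 FPKM in control medium and 11.7 to 12.8 FPKM in conditioned medium (0.05, limma adjusted p = 0.582). Egln3, a prolyl hydroxylase that HIF itself induces, was low and not tested. It was at 0.534, 0.587 and 0.633 FPKM in controls 1 to 3 and at 0.449, 0.479 and 0.336 FPKM in conditioned libraries 1 to 3, from 21 to 41 fragments a library. All its conditioned libraries lay below all controls.

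Vegfa, the growth factor that draws in blood vessels, was the 1 member of the hypoxia class that rose. It was at 14.8, 16.1 and 16.6 FPKM in controls 1 to 3 and at 19.2, 18.7 and 19.8 FPKM in conditioned libraries 1 to 3. The groups did not overlap and differed by 21.3% (log2 fold change 0.26 ± 0.051 SE, limma adjusted p = 0.0192). The call was lost with no filter on low values (adjusted p = 0.0621) and in a limma fit without control 2 (adjusted p = 0.0578), conditioned 1 (0.0791), conditioned 2 (0.0568) or conditioned 3 (0.0710), with log2 fold changes of 0.245 to 0.284.

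The other hypoxia genes did not pass, in either direction. Bnip3, a receptor for the removal of mitochondria, was at 7.39, 5.96 and 7.53 FPKM in controls 1 to 3 and at 6.59, 8.47 and 7.97 FPKM in conditioned libraries 1 to 3 (log2 fold change 0.12, limma adjusted p = 0.587). Kdm3a, a histone demethylase, had the lowest value of all tested members, -0.09 ± 0.068 (SE; limma adjusted p = 0.530). It was at 3.84, 3.87 and 3.98 FPKM in controls 1 to 3 and at 3.40, 4.03 and 3.39 FPKM in conditioned libraries 1 to 3, conditioned 2 being the highest of the 6 libraries. Ndrg1, a stress-response gene, was at 2.37 to 2.91 FPKM in control medium and 2.40 to 2.62 FPKM in conditioned medium (-0.05). Higd1a, of the inner mitochondrial membrane, was at 3.60 to 4.68 and 4.22 to 5.37 FPKM (0.16). Ero1l, the oxidase that forms disulfides in the endoplasmic reticulum, was at 7.84 to 7.98 FPKM in control medium and 8.39 to 8.86 FPKM in conditioned medium, without overlap (0.105, limma adjusted p = 0.242). Car9, the membrane carbonic anhydrase widely used as a hypoxia marker, was at 0.775 to 1.03 FPKM and 0.795 to 1.34 FPKM. Ankrd37, a further HIF target, was counted in 1 to 13 fragments a library, and neither was tested.

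Set side by side, the classes differed little. The glycolytic class had 2 higher of 20 tested and a median log2 fold change of 0.097 (0.095 without Gapdh), and the hypoxia class had 1 higher of 8 tested and a median of 0.114 (0.105 without Hif1a), where 4.04% of all genes tested were higher. Within the glycolytic class all 16 enzyme genes had a log2 fold change above 0, from 0.005 to 0.61, with a median of 0.11. Of these enzymes 8 did not overlap between groups, all higher; of all genes tested, 52.0% were above 0 and 14.3% were higher without overlap. The 4 tested genes of transport and regulation had a median of 0.02, 2 being above and 2 below 0. Relative to each gene's control mean, the median of the glycolytic class was -0.03 to 0.04 in control libraries and 0.10 to 0.13 in conditioned libraries on the log2 scale. For the hypoxia class it was -0.01 to 0.03 and 0.06 to 0.13. Without Hif1a it was -0.02 to 0.03 in control libraries and 0.07, 0.10 and -0.01 in conditioned libraries 1, 2 and 3. Conditioned 3 then lay inside the control range. Leaving out a library moved the median of the hypoxia class between 0.07 (without control 2) and 0.14 (without control 3), and that of the glycolytic class between 0.085 (without conditioned 1) and 0.12 (without control 3).

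The pentose phosphate pathway branches from glycolysis at glucose 6-phosphate and makes NADPH and ribose. All 7 of its listed genes were tested, 3 rose and none fell, with a median log2 fold change of 0.29 (of all genes tested, 4.04% rose and 2.49% fell). Pgd, the second NADPH-making step, was at 30.7, 29.5 and 31.1 FPKM in controls 1 to 3 and at 39.2, 39.4 and 37.8 FPKM in conditioned libraries 1 to 3 (0.34 ± 0.038 SE, limma adjusted p = 0.00141). G6pdx, the entry step, was at 39.6, 36.4 and 38.4 FPKM and at 49.0, 47.9 and 45.5 FPKM (0.31 ± 0.045 SE, limma adjusted p = 0.00570). Neither overlapped between groups, and both passed under each of the 15 alternatives. Tkt, a transketolase of the branch that returns sugars to glycolysis, went from 35.2 ± 1.47 to 42.1 ± 1.13 FPKM (SD, n = 3; 0.25, limma adjusted p = 0.0111). Its limma call was lost without control 2 (adjusted p = 0.0525), conditioned 1 (0.0587) or conditioned 2 (0.0623). Taldo1, the transaldolase, missed the threshold (42.7 ± 4.91 against 54.0 ± 2.28 FPKM, SD, n = 3; 0.34, limma adjusted p = 0.0504) and passed without control 3 (0.42, limma adjusted p = 0.00802). Rpia and Pgls did not overlap between groups and did not pass (0.29 and 0.13), and Rpe overlapped (-0.03).

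Among 33 other listed genes of glycolysis and pyruvate use, 28 had an entry and 22 were tested. Of these 1 rose and 1 fell, Dlat and Ldhb, and the median log2 fold change was 0.004, beside the same shares of all genes (4.04% and 2.49%). Dlat, a core subunit of pyruvate dehydrogenase, went from 15.04 ± 0.637 to 17.8 ± 0.0953 FPKM (SD, n = 3; 0.23, limma adjusted p = 0.0177). It did not pass without control 3 (adjusted p = 0.0509) or without conditioned 1, 2 or 3 in limma (0.0780, 0.0726 and 0.0624).

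Of 40 other genes known for a response to low oxygen, 31 were tested, 5 rose, 2 fell and 24 did not pass, and their median log2 fold change was 0.04 (of all genes tested, 4.04% rose and 2.49% fell). Angptl4, an inhibitor of lipoprotein lipase, was at 3.31, 3.99 and 4.44 FPKM in controls 1 to 3 and at 9.79, 9.33 and 9.77 FPKM in conditioned libraries 1 to 3 (1.12 ± 0.083 SE, limma adjusted p = 0.000146). Hmox1, haem oxygenase, went from 31.3 ± 2.22 to 44.2 ± 0.641 FPKM (SD, n = 3; 0.49, limma adjusted p = 0.00104). Loxl2, a collagen-crosslinking oxidase, fell from 134.4 ± 2.08 to 111.3 ± 2.15 FPKM (SD, n = 3; -0.27, limma adjusted p = 0.00197). These 3 genes passed under each of the 15 alternatives. All 3 are also known to answer to signals other than oxygen. Mif, a cytokine, rose by 0.29 and the transcription factor gene Bhlhe40 fell by 0.21 on the log2 scale. Leaving out a library ended the limma call of Mif for 5 of the 6 libraries, with adjusted p of 0.0859, 0.106 and 0.0575 without controls 1, 2 and 3 and of 0.112 and 0.133 without conditioned 1 and 2. It ended that of Bhlhe40 for each of the 6 (adjusted p of 0.107, 0.0800 and 0.107 without controls 1, 2 and 3, and of 0.131, 0.164 and 0.0661 without conditioned 1, 2 and 3). Adm, which encodes the vasodilator adrenomedullin, was at 107.2 to 114.4 FPKM in controls and rose to 127.6 to 128.9 FPKM (limma adjusted p = 0.0171). Its call was lost without conditioned 1, 2 or 3 in limma (adjusted p = 0.0805, 0.0797 and 0.0601).

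**Figure D4:**
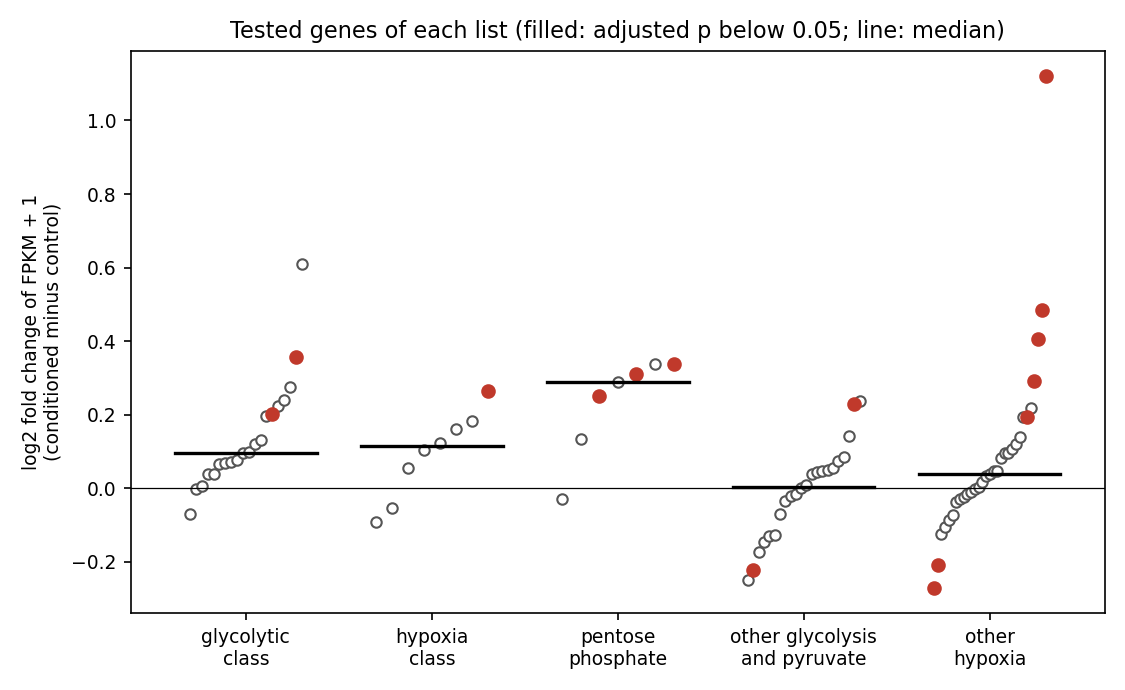
Log2 fold change of FPKM + 1 (conditioned minus control, y axis) of every tested gene of 5 lists, spread sideways in order of value, with filled points for adjusted p below 0.05 and a line at each list's median. The pentose phosphate genes have the highest median (0.29), the glycolytic and hypoxia classes sit near 0.10 and 0.11, and the other 2 lists centre near 0, with Angptl4 at 1.12 the highest point.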

How the data were processed

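Poly-T-selected mRNA was sequenced in paired ends, per the labels' protocols, which describe a directional and a non-directional library without saying which was used. The authors deposited FPKM values of 24413 genes for each of the 6 libraries. CASAVA, HISAT2 2.0.5 and the build mm10 appear in the submitters' processing notes. The counting program, annotation and strand setting were not given in the sources used here. Without a known strand setting, antisense overlaps cannot be separated. Each gene's FPKM steps gave whole fragments (24413 of 24413 genes, tolerance 0.01 fragment), and 23574 gene lengths equalled those of GENCODE M21. Fragments recovered in this way served for fragment numbers and 1 added alternative.

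Members were matched by symbol, and coordinates came from GENCODE M21. The 11678 genes whose mean reached 1 FPKM entered a two-sided limma fit (version 3.58.1, R 4.3.3) on log2(FPKM + 1), with trend and robust prior and no block. P-values were adjusted over all of these genes by Benjamini-Hochberg, threshold 0.05, and fold changes on this scale understate those of low genes. The fit was first run on simulated data that had the same extra spread for every gene. That run does not show which differences could be found in these members. Percent differences compare mean FPKM. Isozyme shares were tested by exact permutation with scipy 1.17.1. Tables and figures used Python 3.11.15, numpy 2.4.6, pandas 2.3.3 and matplotlib 3.10.9.

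The members, lists and marker genes were chosen with earlier results of these data known. Values in every library are given for members that passed, for Hif1a, Slc2a1, Ldha and Gapdh and for the 2 largest log2 fold changes in each direction, and of other lists the genes that passed, at most the 6 largest. The values of 1 gene of these lists are not reported here. Further members were shown in full after their values were seen. The promoter search, the choice of its sequences, the search for copies of Gapdh, its spread and the summed enzyme level were also added after values were seen and carry no test. Replicate numbers were not treated as pairs, because the labels do not say that a number marks a shared animal or day. Same-numbered libraries did not deviate together (correlations -0.095, -0.008 and -0.048), a check that cannot exclude pairing with 3 libraries a group.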

Additional observations from a re-analysis of the deposited data

How the results depend on the processing

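Counts of calls moved more than directions. Against 472 genes higher and 291 lower, limma with the replicate block gave 259 and 131, and leaving out 1 library gave 265 to 426 and 129 to 252, both lowest without conditioned 2 and highest without control 1. With no filter on low values 165 genes were lower, and with voom on recovered fragments, an alternative chosen after seeing the data, 486 of 1147 genes called in all (763 in the fit on FPKM). Members higher were 3, but 1 with the replicate block, 1 with no filter, 6 with a mean of at least 5 FPKM, 7 with voom on fragments and 1 to 4 when leaving out a library; members lower were 0 under every alternative computed. With the replicate block Pkm still passed, and Aldoa (adjusted p = 0.133) and Vegfa (0.0636) did not, nor did Tkt (0.0731), Ldhb (0.143), Dlat (0.0879), Adm (0.0981), Mif (0.148) and Bhlhe40 (0.105); the cause was not tested. Pentose phosphate genes higher were 3, but 5 with voom, 2 with the replicate block and 2 without control 2, conditioned 1 or conditioned 2. The median of the hypoxia class ranged from 0.074 to 0.138 and that of the glycolytic class from 0.085 to 0.121 when leaving out a library. From recovered fragments instead of FPKM, which weights isozymes by gene length, the share of Slc2a1 differed by 5.37 percentage points (3.18 from FPKM), that of Ldhb by -1.36 (-2.46) and that of Pdk1 by -0.717 (-0.289). Quantile and TMM scaling kept the 3 member calls and moved the median of all genes to -0.011 and -0.002. The 2 negative binomial count tests listed as alternatives were not run. Depth limits Ankrd37, Egln3 and Car9, with under 60 fragments in each library.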
